A study of Mus musculus with 44 samples.

Results

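The 10 genes described here act on collagen and elastin between translation and the finished fibre. They are the collagen chaperone Serpinh1, the prolyl 4-hydroxylase subunits P4ha1 and P4ha2, the lysyl hydroxylases Plod1 and Plod2, and the lysyl oxidases Lox, Loxl1, Loxl2, Loxl3 and Loxl4. They were chosen by gene name, as 10 of 24150 genes in one table of lung RNA and 10 of 26940 genes in the other, and all 10 were present in both. The selection was made with results of these data in view, including the contrast of Timp2 mutant with wild-type lungs. Values from that contrast are therefore given as a description, with no p-value, and nothing is read from its counts of called genes. Which other results took part is not known, so in the other contrasts too the counts among the 10 genes are a description.

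RNA was sequenced from lungs of C57BL6j mice in 44 libraries, most of them from mice injected with LL/2-Luc2 cells, which are mouse Lewis lung carcinoma cells carrying luciferase. In the subcutaneous model, wild-type mice carried the cells under the skin of the flank, and their early metastatic lungs came from mice given recombinant human TIMP2 (rTIMP2) from day 7 (n = 4), rTIMP2 from day 0 (n = 5) or HBSS, the vehicle (n = 5). In the intratracheal model there were 6 groups of 5 mice each, and the cells, where given, were placed in the airway. Mice with a mutant Timp2 gene (MT2) or wild-type mice (WT) received cells and rTIMP2, received cells and HBSS, or were tumour-free. The dose of rTIMP2 was 200 µg per kg per day into the peritoneum. TIMP2 is secreted and blocks matrix metalloproteinases. The subcutaneous mice and the WT mice carry no Timp2 mutation by their labels, and tumour-free lungs carry the cell line's label too although they were given no cells by their titles.

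Collagen chains are hydroxylated and folded in the endoplasmic reticulum before they leave the cell. Prolyl 4-hydroxylases make the hydroxyproline that keeps the triple helix stable at body temperature, and Serpinh1, also called HSP47, binds the folded helix and is itself a heat shock gene. Lysyl hydroxylases modify lysines that later take part in crosslinks and carry sugars. Outside the cell, lysyl oxidases oxidise lysines of collagen and elastin, the step that starts crosslinking. Lung fibroblasts and smooth muscle cells are main sources of these enzymes, and several of the genes, P4ha1 among them, are known targets of hypoxia.

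Estimated depth was 14.86 to 19.41 M reads in subcutaneous libraries and 10.68 to 17.14 M in intratracheal ones. Values are normalized counts as the authors deposited them, scaled separately in the 2 tables, so levels are compared within a table. Alveolar type 2 markers, which check the tissue label, summed to at least 229586 in every subcutaneous lung and 273180 in every tumour-free lung, and to as little as 7962 in MT2 tumour lungs given HBSS. The reporter was at 0 in all 10 tumour-free lungs. It was also at 0 in replicates 2, 3 and 5 of the WT lungs labelled as given cells and rTIMP2. In subcutaneous lungs it was 14.3 to 31.3 with HBSS, 16.3 to 44.8 with rTIMP2 from day 0 and 19.3 to 41.3 from day 7. The tumour transcripts Hmga2, Fosl1 and Rhox5 summed to 6.06 to 18.0, 9.32 to 24.4 and 9.43 to 22.2 in that order. Timp2 itself was 5948 to 6237 in MT2 tumour-free lungs and 10147 to 11489 in WT tumour-free lungs, but 6512 to 11992 in MT2 and 5753 to 7781 in WT tumour lungs given HBSS, so its level did not separate the genotype labels once tumour cells were present. Ddx3y, a gene of the Y chromosome, was at most 5.78 in tumour-free lungs and at least 122.6 in every lung given cells, so sex and tumour cannot be told apart between them. Bulk tissue holds RNA of every cell type, including the injected cells, and fewer cells of a type cannot be told apart from less RNA per cell.

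Per kilobase of annotated exon, Serpinh1 was the most abundant of the 10 genes in 9 of 9 groups. It averaged 4135 normalized counts per kilobase in WT tumour lungs given HBSS and 1835 in WT tumour-free lungs. Loxl4 was the least abundant in 8 of 9 groups, at 25.7 normalized counts per kilobase in WT tumour lungs given HBSS and 12.9 in WT tumour-free lungs. Between these ends the order differed by state of the lung. In WT tumour-free lungs, Loxl1 was the second gene with 716 ± 67.0 per kilobase (SD, n = 5), followed by P4ha1 with 326 ± 27.2. In MT2 tumour lungs given HBSS, the next genes were Plod2 with 502 ± 93.2 and Loxl3 with 346 ± 119 per kilobase, and Loxl1 was at 55.3 ± 42.7. The SDs of Loxl3 and of P4ha1, at 311 ± 97.7, overlapped there. The Loxl3 value includes reads of a stretch shared with Htra2 on the opposite strand, 535 bases or 11.6% of its exons, and whether reads were counted by strand is not given in the sources used here.

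In early metastatic lungs, rTIMP2 given from day 0 was accompanied by lower levels of the chaperone, P4ha1, P4ha2 and 2 lysyl oxidases. Of the 10 genes, 5 fell against HBSS and none rose, by limma on log2(value + 1) with Benjamini-Hochberg adjustment over 17282 genes, where 8.1% of all genes were called and 4.21% were called lower. The median log2 difference was -0.34 over the 10 genes and 0.00 (-0.0031) over all genes. Since the 10 genes were chosen with results of these data in view, their count and median are only a description. The largest differences were in P4ha1 and Serpinh1.

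Serpinh1 had 3732, 5009, 4124, 4273 and 4121 normalized counts in lungs given rTIMP2 from day 0, against 5824, 8801, 7105, 6889 and 8472 in HBSS lungs. All 5 treated lungs lay below all 5 HBSS lungs, and the log2 difference was -0.79 ± 0.11 (SE, adjusted p = 0.000705, limma). P4ha1, a catalytic subunit of prolyl 4-hydroxylase, had 1148, 1348, 1126, 1340 and 1561 in lungs given rTIMP2 from day 0, against 1888, 3069, 2137, 2089 and 2535 in HBSS lungs. These groups did not overlap, and the log2 difference was -0.83 ± 0.13 (SE, adjusted p = 0.00199, limma). P4ha2, the other catalytic subunit measured, had 668, 875, 676, 648 and 758 in lungs given rTIMP2 from day 0, against 911, 1133, 957, 1184 and 1389 in HBSS lungs. Its log2 difference was -0.61 ± 0.12 (SE, adjusted p = 0.00605, limma), again with no overlap.

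Loxl1, which in mice is needed to renew elastic fibres, had 815, 1098, 1096, 990 and 1030 normalized counts in lungs given rTIMP2 from day 0, against 1397, 1524, 1235, 1266 and 1219 in HBSS lungs. The highest treated lung lay below the lowest HBSS lung, with a log2 difference of -0.40 ± 0.09 (SE, adjusted p = 0.0143, limma). Lox, the founding lysyl oxidase, had 618, 569, 427, 485 and 667 in lungs given rTIMP2 from day 0, against 671 to 853 in HBSS lungs. The ranges met without crossing, at 667 and 671, and the log2 difference was -0.48 ± 0.11 (SE, adjusted p = 0.0195, limma). The Lox call was lost without HBSS replicate 2 or day 0 replicate 4, with an adjusted p of up to 0.0557 (limma).

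The lysyl hydroxylases and the other lysyl oxidases did not pass the test. The log2 difference was -0.25 ± 0.09 for Plod1 (SE, adjusted p = 0.104, limma), -0.13 ± 0.09 for Plod2 (SE, adjusted p = 0.382, limma) and -0.28 ± 0.09 for Loxl2 (SE, adjusted p = 0.0774, limma). Loxl2 was called when all subcutaneous groups were fitted together (adjusted p = 0.0346, limma). Loxl3 and Loxl4 had log2 differences of 0.18 ± 0.13 and -0.08 ± 0.19 (SE), with adjusted p-values of 0.411 and 0.815 (limma).

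**Figure D1:**
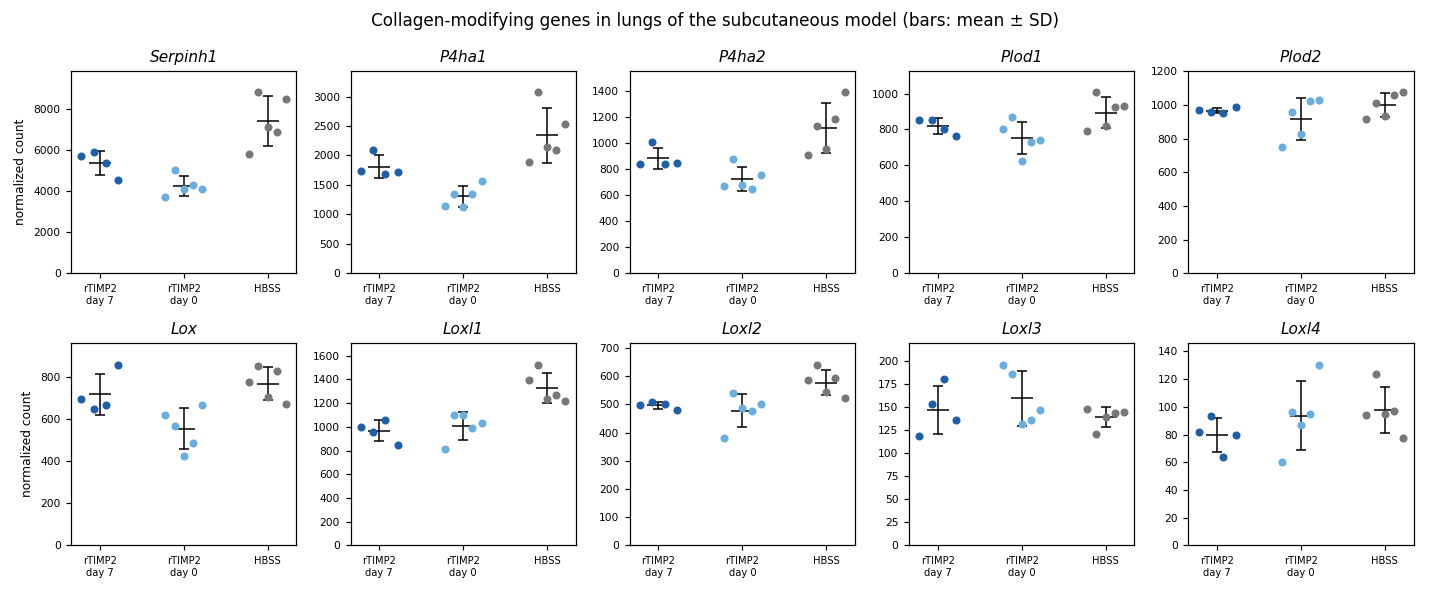
Normalized count of each gene in every lung of the subcutaneous model (points) with the group mean and SD (bars), for rTIMP2 from day 7, rTIMP2 from day 0 and HBSS. Serpinh1, P4ha1, P4ha2, Lox and Loxl1 were lower in all 5 lungs given rTIMP2 from day 0 than in any HBSS lung.

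When rTIMP2 was given from day 7, 2 of the 10 genes fell against HBSS and none rose, where 10.4% of all 17389 genes were called and 5.92% were called lower (limma). Loxl1 had 1001, 958, 1058 and 849 normalized counts in lungs given rTIMP2 from day 7, against 1219 to 1524 in HBSS lungs. All 4 treated lungs were below the HBSS range, and the log2 difference was -0.46 ± 0.08 (SE, adjusted p = 0.00462, limma). Serpinh1 had 5685, 5892, 5344 and 4548 in lungs given rTIMP2 from day 7, against 5824 to 8801 in HBSS lungs, with 1 treated lung inside the HBSS range. Its log2 difference was -0.46 ± 0.12 (SE, adjusted p = 0.0303, limma), and the call was lost when any of 7 of the 9 libraries was left out, among them each of the 4 treated lungs, with an adjusted p of up to 0.0839 (limma). The 2 rTIMP2 comparisons share their HBSS lungs.

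P4ha1 had the largest log2 difference between the start days among the 10 genes. It had 1738, 2094, 1677 and 1710 normalized counts in lungs given rTIMP2 from day 7, against 1148, 1348, 1126, 1340 and 1561 in lungs given it from day 0. The groups did not overlap, but the log2 difference of 0.47 ± 0.10 (SE, adjusted p = 0.0645, limma) did not pass the test. None of the 10 genes was called between the start days by limma, where 0.235% of 17481 genes were called and 2249 genes had an unadjusted p under 0.05. Without day 0 replicate 5, P4ha1 was called between the start days (adjusted p = 0.0268, limma). Against HBSS, the log2 difference of P4ha1 with rTIMP2 from day 7 was -0.36 ± 0.13 (SE, adjusted p = 0.106, limma), and that of P4ha2 was -0.32 ± 0.11 (SE, adjusted p = 0.0903, limma).

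Few other genes of collagen modification, folding and processing were called. With rTIMP2 from day 0, 1 of 23 fell, Fkbp14, a peptidyl-prolyl isomerase of the endoplasmic reticulum, with a log2 difference of -0.54 ± 0.13 (SE, adjusted p = 0.0215, limma). For the day 7 start, 3 of 23 fell and none rose. None of 15 collagens, elastic fibre proteins and fibronectin passed the test with either start (limma), and their median log2 difference was -0.12 with day 0 and -0.10 with day 7. Col1a1, the main fibrillar collagen chain, had 2540 to 4020 normalized counts in lungs given rTIMP2 from day 0 and 2590 to 3715 in HBSS lungs, ranges that overlapped.

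Heat shock genes, the class to which Serpinh1 belongs, moved in the same libraries. With rTIMP2 from day 0, 12 of 13 fell, with a median log2 difference of -1.21. For the day 7 start, 11 of 13 fell, with a median of -0.63. Their summed level was 34559 to 38925 normalized counts with rTIMP2 from day 0, 45138 to 55564 with rTIMP2 from day 7 and 65798 to 106492 in HBSS lungs, and the 3 ranges did not overlap. Hspa1a, the inducible cytosolic chaperone, averaged 504 ± 165 in lungs given rTIMP2 from day 0 and 4417 ± 1835 in HBSS lungs (SD, n = 5 each). The part of the heat shock genes in the lower Serpinh1, P4ha1 and P4ha2 was not tested.

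Markers of other cell types also moved with treatment. Of 5 alveolar type 2 markers, 3 fell with the day 7 start and 1 with the day 0 start, and of 5 macrophage markers, 2 fell with the day 7 start and none was called with the day 0 start (limma). The alveolar type 2 sum was 248521 to 282216 with rTIMP2 from day 7, 229586 to 302984 with rTIMP2 from day 0 and 311133 to 376354 in HBSS lungs, so neither treated range met the HBSS range. The macrophage sum was 2433 to 2658 with rTIMP2 from day 7, 2630 to 3062 with rTIMP2 from day 0 and 2558 to 3453 in HBSS lungs. With rTIMP2 from day 0, 1 of 5 mesothelial and 2 of 5 heart muscle markers fell, and with rTIMP2 from day 7, 3 of 5 and 1 of 5 did. The mesothelial sum was 913 to 1246 with rTIMP2 from day 7, 971 to 1945 with rTIMP2 from day 0 and 1348 to 5163 in HBSS lungs, with no marker at 0 throughout a group. The heart muscle sum was 5906 to 7340 with rTIMP2 from day 7, 4661 to 9559 with rTIMP2 from day 0 and 6975 to 12504 in HBSS lungs. Their part in the results was not tested. Fibroblast markers, the cell type most tied to these enzymes, had 0 of 9 called with either start (limma), and summed to 45996 to 50060 with day 7, 45441 to 57191 with day 0 and 45641 to 57653 in HBSS lungs.

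**Figure D2:**
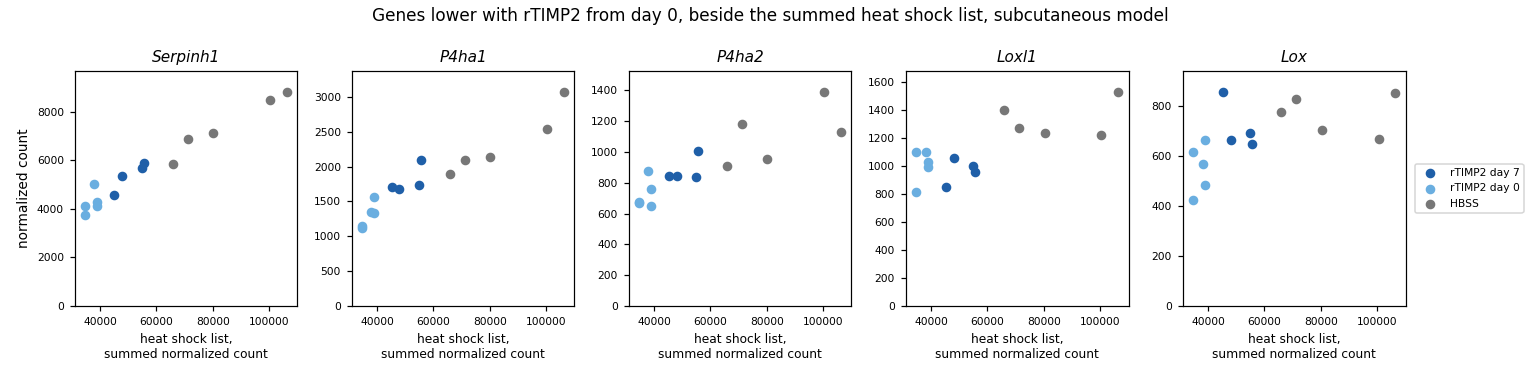
Normalized count of 5 genes (vertical axis) against the summed normalized count of 13 heat shock genes (horizontal axis) in each of the 14 subcutaneous lungs, coloured by group. The HBSS lungs, at sums of 65798 to 106492, lay to the right of all lungs given rTIMP2.

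After each group's mean was removed, the protein coding genes whose pattern over the 14 subcutaneous lungs was most like Serpinh1 were Hspb1 (Pearson r = 0.918), Cnn3 (0.916) and Fkbp4 (0.915), of 12977 genes compared. Hspb1 is a small heat shock protein and Fkbp4 is a co-chaperone of HSP90. For P4ha1 they were Zfp568 (0.946), Hyou1 (0.935), a chaperone of the endoplasmic reticulum, and Ubqln1 (0.928). For P4ha2 they were Tead2 (0.929), D230025D16Rik (0.916) and Fblim1 (0.914). Among the 10 genes, Loxl1 and Loxl2 were the most alike (r = 0.848), and Serpinh1 had r = 0.731 with P4ha1 and 0.706 with P4ha2. These lungs share their processing, and each r is a description over 14 libraries.

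The starts of Serpinh1, P4ha1 and P4ha2 are shown because these 3 genes fell together with rTIMP2 from day 0. The sequences are the 250 bases before the RefSeq start, from GRCm38.p6. Capitals mark the core ACGTG or GCGTG of a hypoxia response element and the heat shock element pairs GAANNTTC or TTCNNGAA, searched on both strands. The windows are chr7:99353240-99353489 on the minus strand for Serpinh1, chr10:59323046-59323295 on the plus strand for P4ha1, and chr11:54100674-54100923 on the plus strand for P4ha2.
Serpinh1: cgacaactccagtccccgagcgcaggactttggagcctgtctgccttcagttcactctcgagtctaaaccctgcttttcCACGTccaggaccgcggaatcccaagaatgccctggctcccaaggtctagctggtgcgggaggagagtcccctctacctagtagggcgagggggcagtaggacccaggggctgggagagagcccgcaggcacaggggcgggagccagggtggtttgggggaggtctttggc
P4ha1: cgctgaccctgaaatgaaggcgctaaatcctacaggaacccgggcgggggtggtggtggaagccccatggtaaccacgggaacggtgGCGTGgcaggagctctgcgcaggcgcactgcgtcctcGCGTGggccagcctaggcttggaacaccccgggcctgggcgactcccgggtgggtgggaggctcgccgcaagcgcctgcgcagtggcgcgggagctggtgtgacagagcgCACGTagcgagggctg
P4ha2: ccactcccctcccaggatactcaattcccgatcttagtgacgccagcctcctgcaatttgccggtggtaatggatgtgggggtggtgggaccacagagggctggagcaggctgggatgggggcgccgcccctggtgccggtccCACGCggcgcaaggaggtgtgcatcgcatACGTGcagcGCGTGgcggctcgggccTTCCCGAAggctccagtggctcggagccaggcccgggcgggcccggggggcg
The 5′ flank of Serpinh1 held 1 hypoxia core and no heat shock pair of this form. P4ha1 held 3 hypoxia cores and no heat shock pair. P4ha2 held 3 hypoxia cores and 1 heat shock pair, 52 to 45 bases before its RefSeq start. That RefSeq start lies downstream of the start of the gene as counted here, chr11:54100095-54131665, so the P4ha2 window lies inside the gene. Of 32851 promoters of the same length, 38.6% held at least 1 hypoxia core and 12.8% at least 1 heat shock pair. Each heat shock pair reads the same on both strands, and hypoxia cores on opposite strands can share bases. A match is only a run of letters, and no match refers only to this window. Promoters of 5 of the 10 genes were in the reference table used.

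Of 17 hypoxia targets, 1 rose and 2 fell with rTIMP2 from day 0, and 1 fell with the day 7 start, where 8.1% and 10.4% of all genes were called. Adm, a vasodilator peptide, averaged 41.3 ± 3.16 normalized counts in lungs given rTIMP2 from day 0 and 65.5 ± 7.94 in HBSS lungs (SD, n = 5 each), a log2 difference of -0.65 ± 0.15 (SE, adjusted p = 0.0180, limma). Higd1a, a mitochondrial protein, had a log2 difference of -0.37 ± 0.09 with the day 0 start (SE, adjusted p = 0.0205, limma) and -0.27 ± 0.07 with the day 7 start (SE, adjusted p = 0.0217, limma). Pdk1, a kinase that turns off pyruvate oxidation, averaged 841 ± 46.3 normalized counts in lungs given rTIMP2 from day 0 and 671 ± 70.3 in HBSS lungs (SD, n = 5 each), a log2 difference of 0.33 ± 0.08 (SE, adjusted p = 0.0181, limma).

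In the intratracheal model, tumour lungs given HBSS and tumour-free lungs differed in most genes, and the 10 genes moved in both directions. In WT lungs, 6 rose and 4 fell, where 70.5% of 16967 genes were called, 32.8% higher and 37.7% lower (limma). In MT2 lungs, 4 rose and 3 fell, where 67.4% of 16999 genes were called, 31.5% higher and 35.9% lower (limma). With most genes called, the counts alone say little of the 10 genes. In both genotypes Plod1, Plod2, Loxl3 and Loxl4 rose, and Loxl1, Loxl2 and P4ha2 fell.

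**Figure D3:**
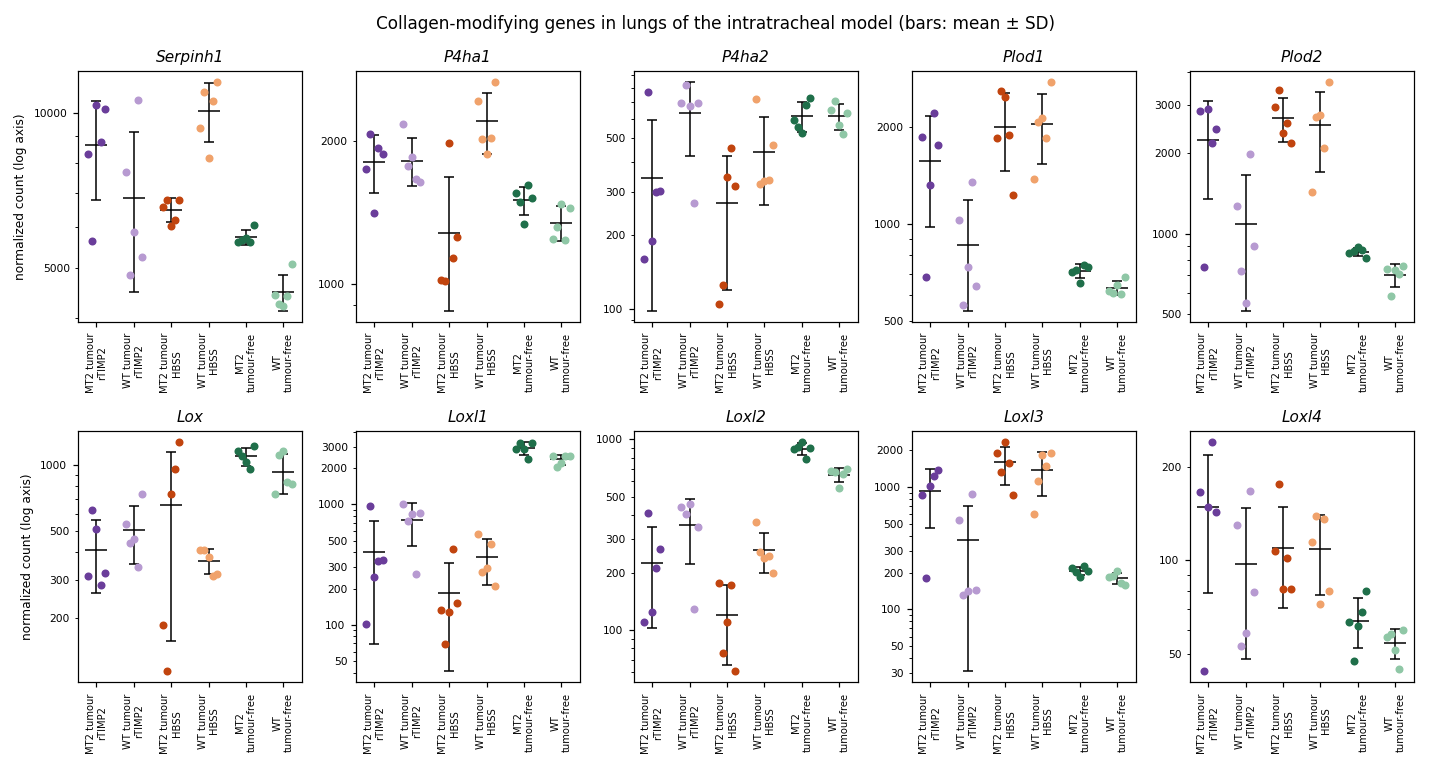
Normalized count (log axis) of each gene in every lung of the intratracheal model (points) with the group mean and SD (bars), for MT2 and WT lungs with tumour and rTIMP2, tumour and HBSS, or no tumour. Loxl3, Plod1 and Plod2 were higher in every HBSS tumour lung than in any tumour-free lung of the same genotype, and Loxl1 and Loxl2 were lower.

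Loxl3, a lysyl oxidase needed for palate and spine development in mice, showed the largest rise. It had 1894, 1336, 2311, 1557 and 863 normalized counts in MT2 tumour lungs, against 217, 204, 184, 225 and 204.5 in MT2 tumour-free lungs, a log2 difference of 2.86 ± 0.23 (SE, adjusted p = 1.22e-06, limma). In WT tumour lungs it had 601, 1120, 1817, 1487 and 1890, against 185, 188, 206, 166 and 159 in WT tumour-free lungs, a log2 difference of 2.82 ± 0.28 (SE, adjusted p = 1.13e-05, limma). The groups did not overlap in either genotype.

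Both lysyl hydroxylases rose in tumour lungs, Plod2 to 3.16 times the tumour-free mean in MT2 and 3.60 times in WT, and Plod1 to 2.81 times in MT2 and 3.21 times in WT. Plod2, which hydroxylates lysines in the ends of collagen chains, had 2973, 3432, 2376, 2571 and 2173 in MT2 tumour lungs, against 846, 861, 894, 867 and 810 in MT2 tumour-free lungs. The log2 difference was 1.64 ± 0.14 in MT2 (SE, adjusted p = 1.69e-06, limma) and 1.78 ± 0.21 in WT (SE, adjusted p = 3.57e-05, limma). Plod1, which hydroxylates lysines within the helix, had 1841, 2586, 2480, 1885 and 1227 in MT2 tumour lungs, against 654 to 746 in MT2 tumour-free lungs. Its log2 difference was 1.44 ± 0.19 in MT2 (SE, adjusted p = 3.84e-05, limma) and 1.65 ± 0.15 in WT (SE, adjusted p = 7.51e-06, limma). For neither gene did tumour and tumour-free lungs overlap in either genotype.

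Loxl1 showed the largest fall. It had 133, 69.9, 128, 428 and 153 normalized counts in MT2 tumour lungs, against 2907, 3229, 2889, 2373 and 3211 in MT2 tumour-free lungs, a log2 difference of -4.26 ± 0.37 (SE, adjusted p = 2.45e-06, limma). In WT tumour lungs it had 566, 273, 298, 469.5 and 210, against 2512, 2054, 2198, 2515 and 2528 in WT tumour-free lungs, a log2 difference of -2.79 ± 0.24 (SE, adjusted p = 4.86e-06, limma). The tumour lung means were 0.0624 of the tumour-free mean in MT2 and 0.154 of it in WT.

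Loxl2, which oxidises lysines of basement membrane collagen, had 177, 75.9, 109.9, 172 and 60.9 in MT2 tumour lungs, against 788 to 961 in MT2 tumour-free lungs, a log2 difference of -3.01 ± 0.28 (SE, adjusted p = 3.40e-06, limma). In WT tumour lungs it had 366, 257, 238, 245 and 198, against 554.5 to 698 in WT tumour-free lungs, a log2 difference of -1.34 ± 0.15 (SE, adjusted p = 2.38e-05, limma). Neither pair overlapped.

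Lox and P4ha2 were less even. Lox had 187, 115, 741, 963 and 1267 in MT2 tumour lungs, against 957 to 1225 in MT2 tumour-free lungs, so that 3 MT2 tumour lungs lay below the tumour-free range, 1 inside it and 1 above it. Its log2 difference in MT2 was -1.26 ± 0.58 (SE, adjusted p = 0.0764, limma), and it was called without MT2 tumour replicate 4 or 5 (adjusted p as low as 0.0287, limma) and with all intratracheal groups in 1 fit (adjusted p = 0.00973, limma). In WT tumour lungs Lox had 313 to 409, against 736 to 1163 in WT tumour-free lungs, a log2 difference of -1.33 ± 0.15 (SE, adjusted p = 2.29e-05, limma).

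P4ha2 had 105, 126, 346, 457 and 318 in MT2 tumour lungs, against 522 to 726 in MT2 tumour-free lungs, a log2 difference of -1.39 ± 0.37 (SE, adjusted p = 0.00603, limma). In WT lungs the ranges overlapped, with 721, 324, 332, 335 and 469 in tumour lungs and 518 to 707 in tumour-free lungs. The WT log2 difference of -0.56 ± 0.21 (SE, adjusted p = 0.0340, limma) lost its call without any of 6 libraries (WT tumour-free replicates 1, 2 and 5, WT tumour replicates 2, 3 and 4), with an adjusted p of up to 0.0824, and with all groups in 1 fit, with an adjusted p of 0.201 (limma).

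Loxl4 stayed the least abundant of the 10 genes in WT lungs. It had 107, 175, 81.2, 102 and 81.0 in MT2 tumour lungs, against 47.6 to 79.7 in MT2 tumour-free lungs, a log2 difference of 0.72 ± 0.24 (SE, adjusted p = 0.0211, limma) that lost its call without MT2 tumour-free replicate 2 (adjusted p = 0.0571, limma), with all groups in 1 fit (adjusted p = 0.0654, limma) and with a replicate block (adjusted p = 0.0590, limma). In WT tumour lungs it had 72.8 to 138.8, against 44.85 to 60.1 in WT tumour-free lungs, a log2 difference of 0.94 ± 0.22 (SE, adjusted p = 0.00272, limma).

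Serpinh1 and P4ha1 rose in WT lungs. Serpinh1 had 9334, 10968, 8180, 10565 and 11467 normalized counts in WT tumour lungs, against 4434, 4249, 4225, 4406 and 5095 in WT tumour-free lungs, a log2 difference of 1.17 ± 0.12 (SE, adjusted p = 1.11e-05, limma). P4ha1 had 2422, 2014, 1874, 2025 and 2654 in WT tumour lungs, against 1240, 1319, 1475, 1235 and 1442 in WT tumour-free lungs, a log2 difference of 0.70 ± 0.11 (SE, adjusted p = 0.000234, limma). Neither gene's groups overlapped. In MT2 lungs the log2 difference was 0.18 ± 0.10 for Serpinh1 (SE, adjusted p = 0.155, limma) and -0.27 ± 0.18 for P4ha1 (SE, adjusted p = 0.196, limma). Without MT2 tumour replicate 3, whose P4ha1 was 1976, P4ha1 was called lower in MT2 tumour lungs (adjusted p = 0.00484, limma).

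**Figure D4:**
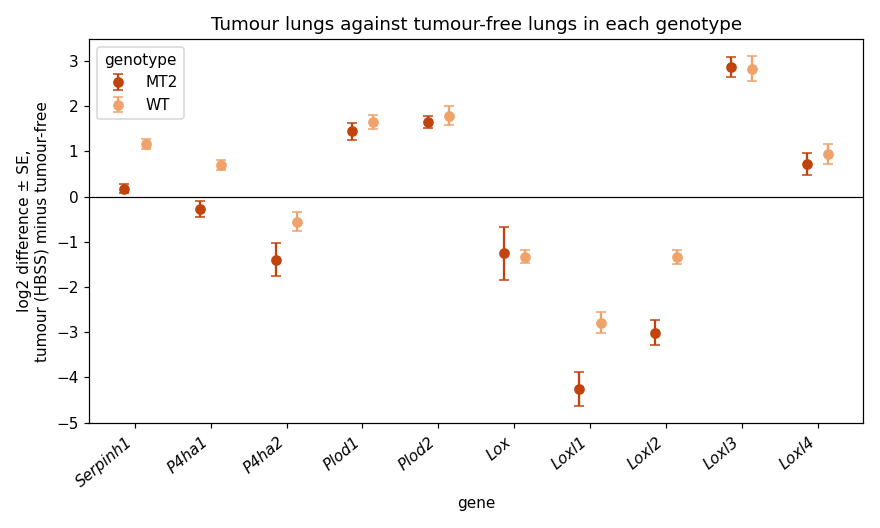
Log2 difference of tumour lungs given HBSS minus tumour-free lungs (points) with its SE (bars) for each gene, in MT2 and in WT mice (n = 5 per group). Plod1, Plod2, Loxl3 and Loxl4 lay above 0 in both genotypes, Loxl1, Loxl2 and P4ha2 lay below, and Serpinh1 was 0.18 in MT2 and 1.17 in WT.

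The rest of the collagen machinery was split as well. Of 23 other genes of collagen modification and processing, 11 rose and 8 fell in MT2 tumour lungs, and 12 rose and 9 fell in WT tumour lungs. Adamts14, a procollagen N-proteinase, averaged 1490 ± 437 in MT2 tumour lungs and 65.8 ± 5.87 in MT2 tumour-free lungs (SD, n = 5 each), a log2 difference of 4.42 ± 0.22 (SE, adjusted p = 8.16e-08, limma). Adamts2, its close relative, had a log2 difference of -3.50 ± 0.32 in MT2 (SE, adjusted p = 3.56e-06, limma). Colgalt2, which adds galactose to hydroxylysine, had a log2 difference of -5.17 ± 0.52 in MT2 (SE, adjusted p = 6.71e-06, limma).

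Of 15 substrates, 4 rose and 9 fell in MT2 tumour lungs, and 5 rose and 9 fell in WT tumour lungs. In WT, Col3a1 averaged 50879 ± 20669 in tumour lungs and 6892 ± 1671 in tumour-free lungs (SD, n = 5 each), a log2 difference of 2.80 ± 0.31 (SE, adjusted p = 2.35e-05, limma). Mfap4, a protein of elastic fibres, had a log2 difference of -4.41 ± 0.32 in MT2 and -2.61 ± 0.22 in WT (SE, adjusted p = 7.36e-07 and 4.50e-06, limma). Fbln5, which links elastin to cells, had a log2 difference of -3.31 ± 0.20 in MT2 and -2.38 ± 0.21 in WT (SE, adjusted p = 2.07e-07 and 5.72e-06, limma).

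Tumour transcripts and lung cell markers moved with all of these values. The 3 tumour transcripts Hmga2, Fosl1 and Rhox5 rose in both genotypes, 3 of 3 in each. Their sum was 7370 to 8660 in MT2 tumour lungs and 16.3 to 33.0 in MT2 tumour-free lungs, and 4230 to 10372 in WT tumour lungs and 22.3 to 56.7 in WT tumour-free lungs. Of 9 fibroblast markers, 7 fell and 2 rose in each genotype, and 4 of 4 endothelial markers fell in each. The fibroblast sum was 14973 to 34680 in MT2 tumour lungs and 42107 to 48866 in MT2 tumour-free lungs, and 18788 to 27260 in WT tumour lungs and 44256 to 50795 in WT tumour-free lungs. The endothelial sum was 1638 to 6789 in MT2 tumour lungs and 38148 to 42955 in MT2 tumour-free lungs, and 2830 to 13842 in WT tumour lungs and 38067 to 42785 in WT tumour-free lungs. Of 7 smooth muscle and pericyte markers, 7 fell in MT2 and 6 in WT, and of 5 macrophage markers, 4 rose in each. The smooth muscle and pericyte sum was 837 to 5558 in MT2 tumour lungs and 14118 to 17448 in MT2 tumour-free lungs, and 1832 to 12991 in WT tumour lungs and 13464 to 15391 in WT tumour-free lungs. The macrophage sum was 9834 to 12611 in MT2 tumour lungs and 2470 to 3215 in MT2 tumour-free lungs, and 6892 to 13069 in WT tumour lungs and 2497 to 3309 in WT tumour-free lungs. No marker of these 4 cell types was at 0 throughout a group, and the part of these cells in the results was not tested.

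Heat shock and hypoxia genes moved in part. Of 13 heat shock genes, 4 rose and 3 fell in MT2 tumour lungs, and 9 rose and none fell in WT tumour lungs. Of 17 hypoxia genes, 8 rose and 3 fell in MT2, and 10 rose and 3 fell in WT. The difference between genotypes was not called for any of these 30 genes, where 0.0223% of 17927 genes were called (limma). With so few genes called, this does not show that the responses were alike. The median difference (MT2 minus WT, log2) was -0.73 for heat shock and -0.27 for hypoxia genes, against -0.06 over all genes. Egln3, an oxygen sensor induced by hypoxia, averaged 1411 ± 826 in MT2 tumour lungs and 35.4 ± 16.0 in MT2 tumour-free lungs (SD, n = 5 each), a log2 difference of 5.23 ± 0.35 (SE, adjusted p = 4.45e-07, limma).

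The genotype contrast took part in the choice of the 10 genes, so the values that follow carry no p-value and support nothing, and counts of called genes are given beside their background only as a description. In tumour-free lungs, Serpinh1 had 5601, 5661, 5711, 5614 and 6054 normalized counts in MT2, against 4434, 4249, 4225, 4406 and 5095 in WT, a log2 difference of 0.36 ± 0.06 (SE). Every MT2 lung was above every WT lung. Loxl2 had 889.5, 913.5, 961, 788 and 900.3 in MT2, against 682, 672, 554.5, 655 and 698 in WT, a log2 difference of 0.45 ± 0.07 (SE), again with no overlap. Plod2 had 846, 861, 894, 867 and 810 in MT2, against 738, 585, 733, 705 and 756 in WT, a log2 difference of 0.29 ± 0.07 (SE), also with no overlap.

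The other 7 genes overlapped between the genotypes in tumour-free lungs. How many of all genes lay without overlap was not counted in this or any other contrast, so a lack of overlap is only a description. Their log2 differences were 0.30 ± 0.08 for Loxl1, 0.25 ± 0.12 for Lox, 0.22 ± 0.15 for Loxl4, 0.20 ± 0.09 for Loxl3, 0.17 ± 0.06 for Plod1, 0.16 ± 0.07 for P4ha1 and 0.00 (0.0005) ± 0.10 for P4ha2 (SE). Of the 10 genes, 2 were called by limma, Serpinh1 and Loxl2, both higher, where 0.0238% of 16774 genes, or 4 genes, were called and 0.0119% were called higher. Since these values helped to choose the genes, nothing is read from that count. Each of the 2 calls was lost without any of 8 of the 10 libraries. None of the 23 other collagen genes or the 15 substrates was called in this contrast (limma).

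In tumour lungs given HBSS, the log2 difference between genotypes had the opposite sign for several of the genes, as a description only. Serpinh1 had 6572, 6786, 6032, 6195 and 6781 in MT2, against 9334, 10968, 8180, 10565 and 11467 in WT, a log2 difference of -0.63 ± 0.15 (SE). The 5 MT2 lungs lay in a narrow band below the lowest WT lung. Loxl2 was also without overlap, at 60.9 to 177 in MT2 against 198 to 366 in WT, a log2 difference of -1.22 ± 0.32 (SE). P4ha1 was 1015 to 1252 in 4 of the 5 MT2 lungs and 1976 in the other one, against 1874 to 2654 in WT, a log2 difference of -0.82 ± 0.20 (SE).

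The other lysyl oxidase, hydroxylase and prolyl hydroxylase genes overlapped between MT2 and WT tumour lungs given HBSS. Their log2 differences were -1.17 ± 0.43 for Loxl1, -0.84 ± 0.41 for P4ha2, 0.32 ± 0.58 for Lox, 0.24 ± 0.34 for Loxl3, 0.15 ± 0.24 for Plod2, -0.04 ± 0.24 for Plod1 and 0.00 (-0.00036) ± 0.29 for Loxl4 (SE). None of the 10 genes and 0% of 16299 genes were called by limma, and 1208 genes had an unadjusted p under 0.05.

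The difference of differences sets the tumour response of MT2 against that of WT. It was -0.99 ± 0.14 for Serpinh1, -0.98 ± 0.21 for P4ha1, -1.67 ± 0.33 for Loxl2, -1.47 ± 0.47 for Loxl1 and -0.84 ± 0.46 for P4ha2 on the log2 scale (SE). For Plod1, Plod2, Loxl3, Loxl4 and Lox it lay between -0.22 and 0.07. Of the 10 genes, 1 was called by limma, Serpinh1, which was lower, where 0.0223% of 17927 genes were called, all 4 of them lower. Nothing is read from that count either. Fibroblast and endothelial markers had medians of -0.67 and -0.61 on the same scale, and smooth muscle and pericyte markers -1.33. Heat shock genes had a median of -0.73, macrophage markers 0.18 and tumour transcripts 0.63, against -0.06 over all genes. The part of these genes and cells in the values was not tested.

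In MT2 and WT tumour lungs given rTIMP2, Serpinh1 had 8318, 5645, 10344, 8784 and 10166 normalized counts in MT2, against 7674, 4836, 5870, 10576 and 5249 in WT. The groups overlapped, and the lowest MT2 lung, replicate 2, was also the one with the lowest reporter value, 0.983. None of the 10 genes and 0% of 16858 genes were called between the genotypes under rTIMP2 by limma, and 2998 genes had an unadjusted p under 0.05. Without MT2 replicate 2, 5 of the 10 genes were called. Over all genes, leaving out 1 library gave 0 to 6010 called, so nothing is read from that count.

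In WT tumour lungs, 3 of the 10 genes fell with rTIMP2 against HBSS and none rose, where 27.3% of 16908 genes were called and 11.3% were called lower (limma). Plod1 had 1028, 561, 734, 1351 and 639 in lungs given rTIMP2, against 1377, 2072, 2136, 1848 and 2752 in HBSS lungs, without overlap and with a log2 difference of -1.28 ± 0.26 (SE, adjusted p = 0.0398, limma). Plod2 had 1262, 724, 552, 1982 and 895 in lungs given rTIMP2, against 1429, 2717, 2754, 2088 and 3663 in HBSS lungs, a log2 difference of -1.30 ± 0.35 (SE, adjusted p = 0.0398, limma). Loxl3 had 538, 132, 140.2, 880.3 and 143 in lungs given rTIMP2, against 601, 1120, 1817, 1487 and 1890 in HBSS lungs, a log2 difference of -2.28 ± 0.57 (SE, adjusted p = 0.0398, limma). The highest treated lung for Plod2 and Loxl3, replicate 4, lay inside the HBSS range.

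Tumour signal varied widely among the treated WT lungs. Hmga2, a transcript of the injected cells, was 1198, 23.5, 32.1, 2780 and 13.6 in the same 5 lungs, against 2212 to 4713 in WT tumour lungs given HBSS and 12.6 to 27.8 in WT tumour-free lungs. The 3 lungs with the lowest Hmga2, replicates 2, 3 and 5, were those with the reporter at 0, and they held the 3 lowest values of Loxl3, Plod1 and Plod2. All 3 tumour transcripts fell with rTIMP2, with a median log2 difference of -4.71, and 4 of 4 endothelial and 5 of 9 fibroblast markers rose. The 3 calls were each lost when any of 8 of the 10 libraries was left out. Only leaving out treated replicate 4 or HBSS replicate 1 kept them, and the adjusted p was otherwise up to 0.103 (limma). Without treated replicate 4, 8 of the 10 genes were called (limma). Over all genes, leaving out 1 library gave 0 to 9584 called, against 4619 with every library, so the 8 say little of these genes.

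The other 7 genes did not pass the test in WT lungs given rTIMP2. Loxl1 had 1006, 729, 839.5, 262 and 851 in lungs given rTIMP2, against 210 to 566 in HBSS lungs, a log2 difference of 0.98 ± 0.39 (SE, adjusted p = 0.0742, limma). P4ha2 had 696, 824.5, 678, 271 and 696 in lungs given rTIMP2, against 324 to 721 in HBSS lungs, a log2 difference of 0.52 ± 0.33 (SE, adjusted p = 0.227, limma). Replicate 4 was the lowest of the treated lungs in both. Serpinh1 had a log2 difference of -0.61 ± 0.23 (SE, adjusted p = 0.0612, limma), P4ha1 of -0.27 ± 0.14 (SE, adjusted p = 0.149, limma) and Lox of 0.42 ± 0.20 (SE, adjusted p = 0.123, limma). Serpinh1 was called lower without treated replicate 4 (adjusted p = 0.00475, limma) and with all groups in 1 fit (adjusted p = 0.00767, limma).

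**Figure D5:**
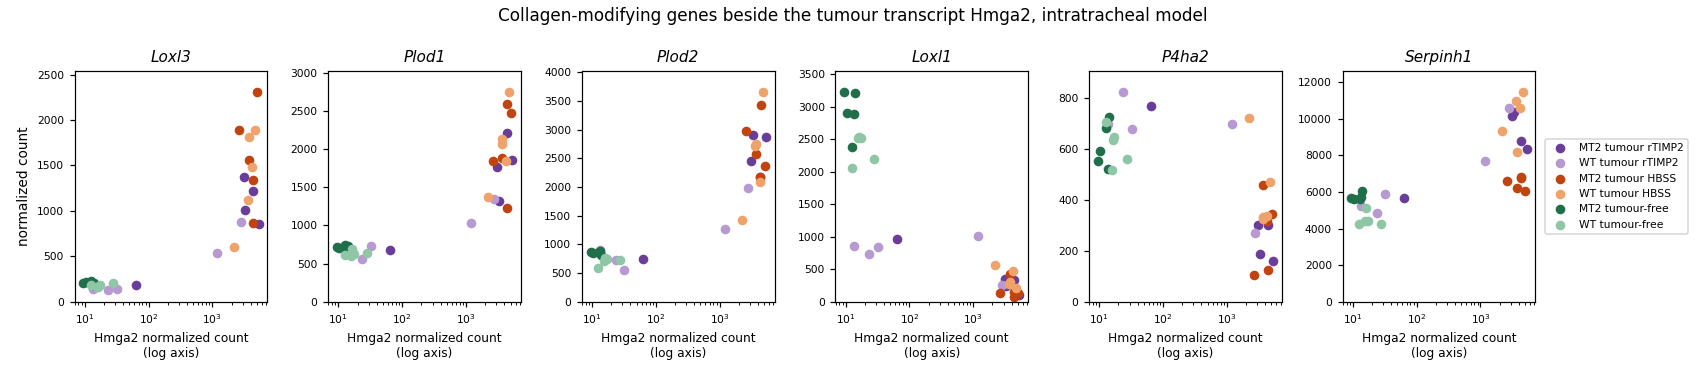
Normalized count of 6 genes (vertical axis) against that of the tumour transcript Hmga2 (horizontal log axis) in the 30 intratracheal lungs, coloured by group. The treated lungs with low Hmga2, 3 WT lungs at 13.6 to 32.1 and 1 MT2 lung at 63.9, lay with or near the tumour-free lungs for Loxl3, Plod1 and Plod2.

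In MT2 tumour lungs, none of the 10 genes and 0% of 16248 genes were called by limma with rTIMP2 against HBSS, and 1559 genes had an unadjusted p under 0.05. P4ha1 had 1746, 2069, 1407, 1929 and 1874 in MT2 lungs given rTIMP2, against 1019, 1015, 1976, 1132 and 1252 in MT2 lungs given HBSS, a log2 difference of 0.53 ± 0.22 (SE, adjusted p = 0.495, limma). It was called with all groups in 1 fit (adjusted p = 0.0412, limma). Serpinh1 had a log2 difference of 0.39 ± 0.21 (SE, adjusted p = 0.546, limma), Plod1 of -0.41 ± 0.33 (SE, adjusted p = 0.655, limma) and Loxl3 of -0.98 ± 0.50 (SE, adjusted p = 0.538, limma). The treated replicate 2 had Loxl3 at 180.2, Plod1 at 683 and Plod2 at 749.5, the lowest of the group in each.

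The difference of differences between MT2 and WT in the response to rTIMP2 was 1.00 ± 0.29 for Serpinh1, 0.80 ± 0.25 for P4ha1, 0.87 ± 0.43 for Plod1, 0.90 ± 0.52 for Plod2 and 1.30 ± 0.81 for Loxl3 on the log2 scale (SE). None of the 10 genes and 0% of 17841 genes were called by limma, and 1053 genes had an unadjusted p under 0.05. The median of the tumour transcripts on the same scale was 3.26.

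Within groups of the intratracheal table, the closest relations were among Loxl3, Plod1 and Plod2 and between Loxl1 and Loxl2. After each group's mean was removed over the 30 lungs, Loxl3 and Plod1 had r = 0.875, Loxl3 and Plod2 0.849, Plod1 and Plod2 0.810, and Serpinh1 and Plod2 0.770. Loxl1 had r = 0.807 with Loxl2 and 0.780 with P4ha2, and -0.715 with Plod2. The genes most like Loxl1 were Adamts2 (0.962), Efr3b (0.951) and Bicc1 (0.942), and those most like Loxl2 were Col1a2 (0.932), Col5a2 (0.907) and Ephb3 (0.900). Vcan (0.948) and Col18a1 (0.946) were among the genes most like Loxl3, and Fn1 was most like Plod1 (0.954). Those most like Serpinh1 were Asf1b (0.909), Umps (0.904) and Fen1 (0.890), of which Asf1b and Fen1 act in DNA replication. P4ha1 was least tied to any gene, with Golph3 (0.823) first. These lungs share their processing and differ in tumour content, and each r is a description over 30 libraries.

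By the files' build, mm10, the 9 genes other than Lox lie on 8 autosomes. Serpinh1 is at chr7:99345376-99353239 on the minus strand, P4ha1 at chr10:59323296-59373304 on the plus strand and P4ha2 at chr11:54100095-54131665 on the plus strand. Plod1 is at chr4:147909753-147936767 on the minus strand and Plod2 at chr9:92542223-92608428 on the plus strand, with Loxl1 at chr9:58287738-58313186 on the minus strand of the same chromosome. Loxl2 is at chr14:69609068-69695834 and Loxl3 at chr6:83034173-83052562, both on the plus strand, and Loxl4 is at chr19:42593982-42612813 on the minus strand.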

How the data were processed

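RNA from lung pieces of about 3 mm3 was selected for polyA and sequenced, per the labels' protocols. The deposited values are a normalized signal per gene, which the authors named normalized counts. The submitters' processing notes name Partek, Bowtie2, STAR and DESeq2 with build mm10, and their versions and roles, and the strand of counting, are not stated. Only 78.9 to 84.5% of low values were whole multiples of 1 read (within 0.02 of a read, up to 20 reads), so no count model was fitted and depth is estimated from that step. Groups came from sample titles. The columns without a sample numbered 0.

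Values were tested as log2(value + 1) in limma 3.58.1 (R 4.3.3, trend and robust), on genes at 10 or more in at least as many lungs as the smaller group, with Benjamini-Hochberg adjustment over all genes tested and a threshold of 0.05. Only the groups compared entered a fit, and fold changes understate low genes. The test was checked only on simulated data in which genes varied independently. That check does not cover variation shared among genes, such as that of tumour content. Alternatives were a pseudocount of 5, no filter on low values, upper quartile scaling, 1 fit over all groups, a replicate block and leaving out each library.

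The 10 genes and all lists were chosen with earlier results of these data known. All 10 genes are named. Other genes are named from the lists, at most the 4 largest called differences per list and comparison, plus fixed heat shock, hypoxia and tumour genes and, for likeness, the 3 highest r among genes with a mean of 50 or more, of which 1 is not reported here. Col1a1, Timp2 and Ddx3y were added as checks. Since no label ties lungs to separate experiments, p-values reflect only how these lungs vary, which may be technical in part. Exon lengths came from GENCODE M21 and promoters from RefSeq (GRCm38.p6).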

Additional observations from a re-analysis of the deposited data

Results flagged for a closer look

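Among 90 combinations of gene and group with 4 or 5 lungs, 10 had 1 lung far from the others by Dixon's test at the 95% level, where chance flags about 1 in 20. In rTIMP2 lungs of the subcutaneous model with the day 7 start, replicate 2 was high for P4ha1 (2094, the others 1677 to 1738) and P4ha2 (1005, the others 838 to 845). Replicate 5 was high for Serpinh1 in MT2 tumour-free lungs (6054, the others 5601 to 5711) and, as a separate mouse, in WT tumour-free lungs (5095, the others 4225 to 4434).

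In tumour lungs, MT2 rTIMP2 replicate 2 was high for Loxl1 (966, the others 101 to 348) and P4ha2 (769, the others 159.9 to 303), and its Hmga2 was 63.9. WT rTIMP2 replicate 4 was low for P4ha2 (271, the others 678 to 824.5), with the highest Hmga2 of its group, 2780. In MT2 lungs given HBSS, replicate 4 was high for Loxl1 (428, the others 69.9 to 153), replicate 2 for Loxl4 (175, the others 81.0 to 107) and replicate 3 for P4ha1 (1976, the others 1015 to 1252).

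Between genotypes, the tumour response of Serpinh1 differed by -0.99 on the log2 scale (MT2 minus WT), in a contrast that took part in choosing the genes, so no p-value is given and the difference is a description. For P4ha1, every MT2 lung given rTIMP2 lay above the MT2 HBSS mean and every WT lung given rTIMP2 lay below the WT HBSS mean, and the difference of differences was 0.80 on the log2 scale. It was not called by limma in the fit over all genes, in a contrast that also took part in choosing the genes.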

How the results depend on the processing

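No log2 difference of the 10 genes changed sign in any called result. Over single genes, a result of a tested comparison counted as kept if it stayed on its side of the threshold. A result of a described genotype comparison counted as kept if its log2 difference moved by less than the residual SD. By this rule, leaving out 1 library kept 501 results, and moved 40 out and 13 in. The other settings kept 247, moved 7 out and 6 in. Calls gained or lost in the genotype comparisons are therefore not among those moved. Leaving out 1 library gave 4 to 5 called genes for rTIMP2 from day 0 against HBSS, 1 to 4 for day 7 against HBSS, 0 to 1 for day 7 against day 0, 6 to 8 for tumour in MT2, 9 to 10 for tumour in WT, 0 to 8 for rTIMP2 in WT (0 to 0 in MT2), 0 to 2 for MT2 against WT in tumour-free lungs, 0 to 0 in HBSS tumour lungs and 0 to 5 in rTIMP2 tumour lungs, 1 to 3 for the genotype by tumour difference and 0 to 0 for the genotype by rTIMP2 difference. All genes called then ranged from 0 to 9584 for rTIMP2 in WT and from 0 to 6010 for MT2 against WT in rTIMP2 tumour lungs. With all groups in 1 fit, the count of the 10 genes was 0 for MT2 against WT in tumour-free lungs. It was 1 for the same contrast in HBSS tumour lungs, 1 for rTIMP2 in MT2 and 0 for genotype by tumour. Upper quartile scaling gave 0 for MT2 against WT in tumour-free lungs.

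Replicate numbers did not pair the lungs: in no comparison did every same-numbered pair correlate above 0.1. A replicate block gave 1 called gene for day 7 against day 0, 0 for MT2 against WT in tumour-free lungs and 0 for rTIMP2 in WT. With the block, the adjusted p (limma) was 0.0273 for P4ha1 between start days, 0.0383 for P4ha1 with day 7 against HBSS, 0.0590 for Loxl4 in MT2 tumour lungs and 0.103 for Plod1, Plod2 and Loxl3 with rTIMP2 in WT. All genes called numbered 2298 rather than 1399 for day 0 against HBSS, and 7773 rather than 4619 for rTIMP2 in WT, with all groups in 1 fit, and 0 for the last with the block. The block gave 1087 rather than 1805 for day 7 against HBSS, 22 rather than 41 between start days and 2 rather than 4 for genotype by tumour. The single fit gave 119 rather than 0 for MT2 against WT in HBSS tumour lungs, 575 rather than 0 for rTIMP2 in MT2 (1 with a pseudocount of 5) and 0 rather than 4 for genotype by tumour and for MT2 against WT in tumour-free lungs, where upper quartile scaling gave 2. The cause was not tested.

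Loxl4, at 44.2 to 239 normalized counts in intratracheal lungs, rests on the fewest reads.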
